A study of Arabidopsis thaliana with 24 samples.

Results

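The shoots compared here were those of *nrt1.13* plants supplied with 2 mM KNO3 and harvested after 16 or 25 days, so the question was which transcripts changed as the shoot of this line grew older under ample nitrate. The 6 libraries (3 plants at each time) were chosen by their labels from 24 libraries in all. *nrt1.13* is an Arabidopsis line in the Col-0 background in which a T-DNA disrupts *NRT1.13* (AT1G33440), a transporter gene of the NRT1/PTR group. It is a single insertion line. All plants were grown hydroponically, a library came from polyadenylated RNA of 1 shoot, and the labels count the days from germination in one place and from sowing in another. Wild type (Col-0) at 2 mM KNO3 (6 libraries, 3 per time) and *nrt1.13* at 0.2 mM KNO3 (6 libraries, 3 per time) were used to see where the change differed. The 24 libraries were sequenced as a single pool. The labels give no batch of sowing or extraction and no hour of harvest, so any of these that followed the days cannot be told apart from age.

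A shoot at these times is a rosette in which the first leaves mature while new ones are still made. In Arabidopsis, rosette age is read by a pair of microRNAs and their targets, nitrogen is moved from older leaves, and iron, which the photosynthetic apparatus needs in large amounts, is sensed in the leaf and stored in plastids as ferritin. The transcripts of the iron-sensing genes, the defence genes of the salicylic acid pathway, the age pathway and the nitrogen pathways were followed as lists.

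The values are read counts per gene divided by a size factor of the library (CPM). The 6 libraries held 31833137 to 35782263 reads, so that 64 to 72.8 reads made up a CPM of 2. In the mean ± SD given below, n = 3 plants, and values joined by "and then" are those of 16 days followed by those of 25 days. The *P* values measure the spread between single plants. The 15108 genes whose CPM was never under 2 in the 24 libraries were tested with limma on log2(CPM + 0.1), a scale that understates the change of low genes, and *P* values were adjusted by the Benjamini-Hochberg method over all of them. A gene is said to have risen or fallen when its adjusted *P* was at most 0.05 and its fold change (FC) at least 1.8. Genes that passed the adjusted *P* alone are named as such. Of the markers of other organs, all 6 flower genes (*AG*, *AP3*, *PI*, *SEP1*, *SEP2* and *SEP3*) stayed under a CPM of 2 in the 6 libraries, with a sum of 3.05 to 3.80 CPM at 16 days and 1.91 to 2.81 CPM at 25 days. The markers of mesophyll, guard cell and xylem gave 0 genes past the adjusted *P*, while 1 marker each of epidermis (*PDF1*), phloem (*SEOR1*) and meristem (*KNAT1*) was lower. In RNA of whole shoots, fewer cells of a type and less RNA per cell cannot be told apart.

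The 16-day plants held 4.61, 3.19 and 4.63 CPM of *NRT1.13* itself, the 25-day plants 3.06, 4.65 and 3.78 CPM. The days overlapped, and the log2 FC was -0.11 (SE 0.20, adjusted *P* = 0.785). Wild-type plants at 2 mM held 8.39 to 9.51 CPM at 16 days and 7.57 to 8.07 CPM at 25 days, above every *nrt1.13* plant.

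From 16 to 25 days, 48 genes rose (0.318% of those tested) and 56 fell (0.371%). The adjusted *P* alone was passed by 577 higher genes (3.82%) and 888 lower genes (5.88%), so most of the changes were smaller than 1.8-fold. The median log2 FC of all genes tested was -0.015. In all 48 and all 56 genes the plants of the days did not overlap, as they did not in 35.0% of all genes tested. A change of at least 2-fold was seen in 31 of the genes that rose and 29 of those that fell, up to a log2 FC of 1.77 and down to -2.55. Together the 104 genes were 0.688% of those tested.

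**Figure D1:**
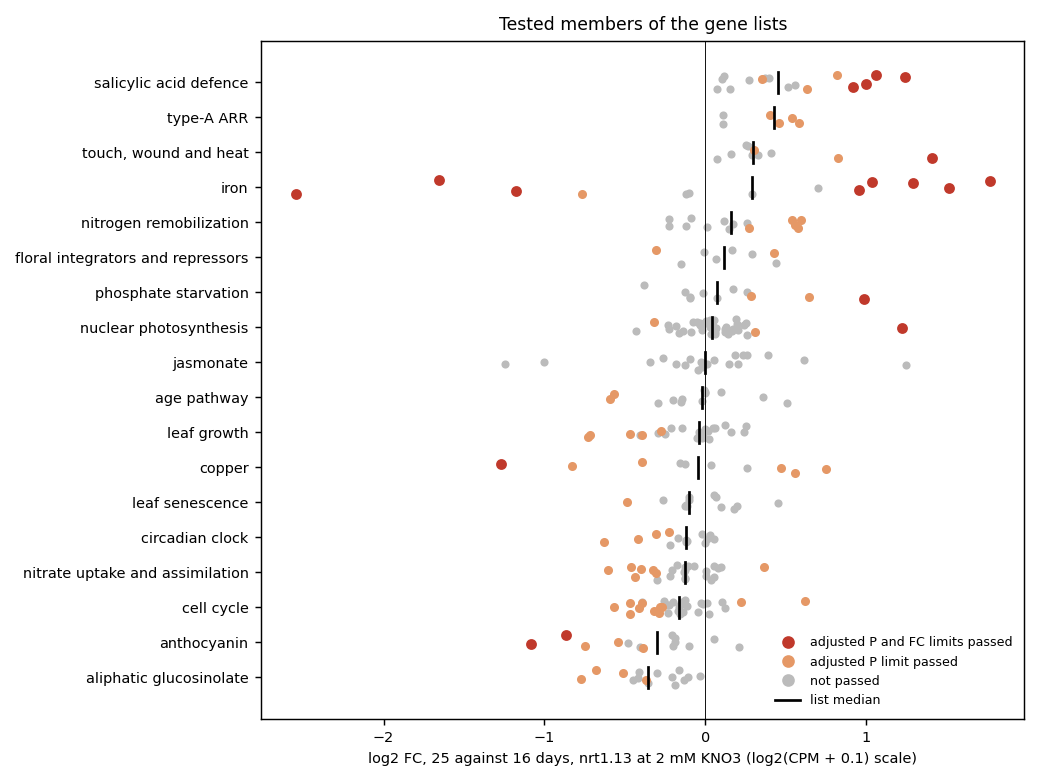
Log2 FC of 25 against 16 days in *nrt1.13* at 2 mM KNO3 for the tested members of each gene list (x axis), with 1 point per gene, the list's median as a black bar and colours for the limits passed. The iron list holds both the largest rise (1.77) and the largest fall (-2.55), whereas all tested members of the salicylic acid list lie above 0.

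The largest changes were in iron genes. In Arabidopsis, low iron in the cell induces 4 closely related transcription factors, BHLH38, BHLH39, BHLH100 and BHLH101, and the E3 ligase BRUTUS (BTS), which holds the response back. Low iron also represses ferritin. Among the 13 tested members of the iron list, 5 rose and 3 fell with the FC limit, and *YSL1*, a transporter of metal-nicotianamine, was lower by the adjusted *P* alone (9 of 13 in either direction, against 9.7% of all genes tested). The median log2 FC of the 13 was 0.29, with members on both sides of 0.

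The 250 bases before the annotated start of 4 of these genes are shown because each holds the palindrome CACGTG, known as the G-box, to which bHLH factors can bind. The sequences are from RefSeq (TAIR10.1), each read on the strand of its gene, with the CACGTG in capitals.
BTS chr3:6273716-6273965 (+ strand): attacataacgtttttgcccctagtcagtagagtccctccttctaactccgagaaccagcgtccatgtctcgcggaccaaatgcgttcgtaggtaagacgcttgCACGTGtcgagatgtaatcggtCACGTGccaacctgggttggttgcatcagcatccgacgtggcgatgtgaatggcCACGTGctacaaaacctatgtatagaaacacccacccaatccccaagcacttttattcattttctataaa
OPT3 chr4:9250344-9250593 (- strand): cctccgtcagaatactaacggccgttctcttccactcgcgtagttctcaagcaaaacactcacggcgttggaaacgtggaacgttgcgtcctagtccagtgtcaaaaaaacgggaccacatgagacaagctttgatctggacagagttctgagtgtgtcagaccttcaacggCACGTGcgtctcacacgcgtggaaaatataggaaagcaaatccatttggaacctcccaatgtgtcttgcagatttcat
BHLH38 chr3:21085246-21085495 (- strand): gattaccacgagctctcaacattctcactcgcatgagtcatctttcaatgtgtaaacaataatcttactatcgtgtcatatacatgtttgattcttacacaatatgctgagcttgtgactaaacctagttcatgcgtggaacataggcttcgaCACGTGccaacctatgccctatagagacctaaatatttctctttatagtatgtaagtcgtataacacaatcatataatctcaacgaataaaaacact
BHLH100 chr2:17199455-17199704 (- strand): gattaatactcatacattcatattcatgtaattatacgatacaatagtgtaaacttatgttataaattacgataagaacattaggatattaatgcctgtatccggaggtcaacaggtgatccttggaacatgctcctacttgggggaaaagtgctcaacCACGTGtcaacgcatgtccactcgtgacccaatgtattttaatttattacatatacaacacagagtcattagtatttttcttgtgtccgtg
*BTS* carried 3 copies, which began 146, 124 and 70 bases before the start, and the other genes carried 1 copy each. CACGTG reads the same on both strands. It was present in 7.45% of the same windows of 15049 tested genes, in 6 of the 48 genes that rose (12.5%), in 6 of the 56 that fell (10.7%) and in 4 of the 13 tested iron genes (30.8%). All 4 genes shown were higher at 25 days. The ferritin *FER4*, which fell, also carried a copy, 69 bases before the start, as did *FER3*, which did not pass the test. *FRO3*, *CGLD27*, *NAS4*, *BHLH39* and *BHLH101*, which were higher too, carried 0. The motif was chosen with the results known, and a match is a description, not a binding site.

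*BTS* (AT3G18290, TAIR10.1 chr3:6273966-6280562) had 113, 99.5 and 142 CPM at 16 days and later, at 25 days, 387, 333 and 287 CPM. The lowest of the older plants stood far above the highest of the younger ones. The rise was from 118 ± 21.5 to 336 ± 49.6 CPM, a log2 FC of 1.51 (SE 0.21, adjusted *P* = 2.66e-05). *FRO3*, a ferric-chelate reductase of mitochondria, had 22.5, 16.5 and 25.6 CPM at 16 days and later, at 25 days, 90.5, 73.0 and 57.6 CPM. It had the largest rise of any tested gene, a log2 FC of 1.77 (SE 0.27, adjusted *P* = 9.98e-05).

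*OPT3*, which loads iron into the phloem, had 180, 168 and 211 CPM at 16 days and later, at 25 days, 452, 349 and 346 CPM (log2 FC 1.03, adjusted *P* = 0.00336). *CGLD27*, which encodes a plastid protein conserved in the green lineage, was 46.7, 44.9 and 57.2 CPM and then 134, 125 and 105 CPM (log2 FC 1.29, adjusted *P* = 5.12e-07). *NAS4*, a nicotianamine synthase, was 13.6, 13.8 and 13.9 CPM at 16 days. At 25 days it was 35.6, 32.2 and 16.7 CPM, so that plant 3 stood near the younger plants, and its rise (log2 FC 0.95, adjusted *P* = 0.00568) lost the call without plant 1 or plant 2 of 25 days, with an adjusted *P* up to 0.0598 and a log2 FC down to 0.75.

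Of the 10 members of the iron list below the filter, 4 were higher without overlap and 3 lower. The shares of all genes below the filter were 7.77% and 7.08%. The 4 higher ones were the *BHLH* genes. *NAS3*, another of the 10, had a mean of 4.14 and then 2.00 CPM (adjusted *P* = 0.056 in the fit without a filter). *BHLH100* had 1.37, 0.44 and 3.80 CPM at 16 days (44, 16 and 133 reads) and later, at 25 days, 54.6, 41.5 and 31.4 CPM, and its mean was 22.7-fold higher. *BHLH38* was 0.28, 0.055 and 0.57 CPM (9, 2 and 20 reads) and then 12.4, 8.25 and 5.90 CPM. *BHLH38* and *BHLH101* overlap genes on the other strand, that of *BHLH101* (79 bases) with up to 1607 CPM, and whether the counting used the strand is not given in the sources used here. *BHLH39* was 0.062, 0.11 and 0.34 CPM (2, 4 and 12 reads) and then 12.2, 7.37 and 5.72 CPM. *BHLH101* was at most 0.13 CPM (4 reads) in the younger plants and 4.76, 3.15 and 2.34 CPM in the older ones. In all 4 genes the days were separated by more than the spread among plants of a day (two-sided exact permutation test, *P* = 0.1 for each, the smallest that 3 plants against 3 allow). In the fit without a filter their adjusted *P* values were 1.80e-05 (*BHLH38*), 9.09e-08 (*BHLH39*), 0.00862 (*BHLH100*) and 1.93e-06 (*BHLH101*).

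On the other side were the iron stores. *FER1* (AT5G01600, TAIR10.1 chr5:227953-230051), a ferritin, had 107, 114 and 108 CPM at 16 days and later, at 25 days, 12.8, 27.4 and 18.5 CPM. The days stood far apart, and the mean fell 5.60-fold, the largest fall among the tested genes (log2 FC -2.55, SE 0.73, adjusted *P* = 0.0258). *FER1* varied far more in other groups, such as *nrt1.13* at 0.2 mM and 16 days with 76.4 to 1060 CPM, and its SE is estimated over all 24 libraries. In a fit of the 6 libraries alone the SE was 0.15 and the adjusted *P* 3.44e-11, whereas the call was lost in 7 of 19 alternatives, with adjusted *P* up to 0.113. A gene on the other strand, AT5G01595, overlaps *FER1* and is listed at 0 in all libraries.

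*FER4*, a second ferritin, was 40.0, 60.0 and 44.0 CPM and then 19.0, 22.8 and 20.9 CPM (log2 FC -1.18, SE 0.23, adjusted *P* = 0.00122). *NEET*, an iron-sulfur protein, was 69.5, 92.6 and 65.4 CPM and then 18.4, 27.6 and 26.4 CPM (log2 FC -1.65, SE 0.20, adjusted *P* = 2.68e-06). Neither overlapped between the days. The ferritin *FER3* did not follow them, with 73.3 to 83.5 CPM at 16 days and 68.7 to 75.1 CPM at 25 days (adjusted *P* = 0.81), and neither did *YSL3* (log2 FC -0.10) or *NAS1* (0.29). *PYE*, a bHLH regulator, was 12.5 to 15 CPM and then 20.8 to 24.9 CPM, which missed the threshold (adjusted *P* = 0.0572). In the fit of the 6 libraries alone its adjusted *P* was 4.4e-06, with a log2 FC of 0.70.

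The plants of a day differed in a common direction. At 25 days, plant 1 was highest and plant 3 lowest in all 9 of the iron genes that rose or, for the *BHLH* genes, were higher without overlap, and plant 1 was lowest in all 3 that fell. At 16 days, plant 2 was highest in all 3 iron genes that fell and lowest in 6 of the 9 that were higher later. Over all genes tested, plant 1 was the highest 25-day plant in 5399 of 15108. Plant 1 was also highest in 34 of all 48 genes that rose.

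**Figure D2:**
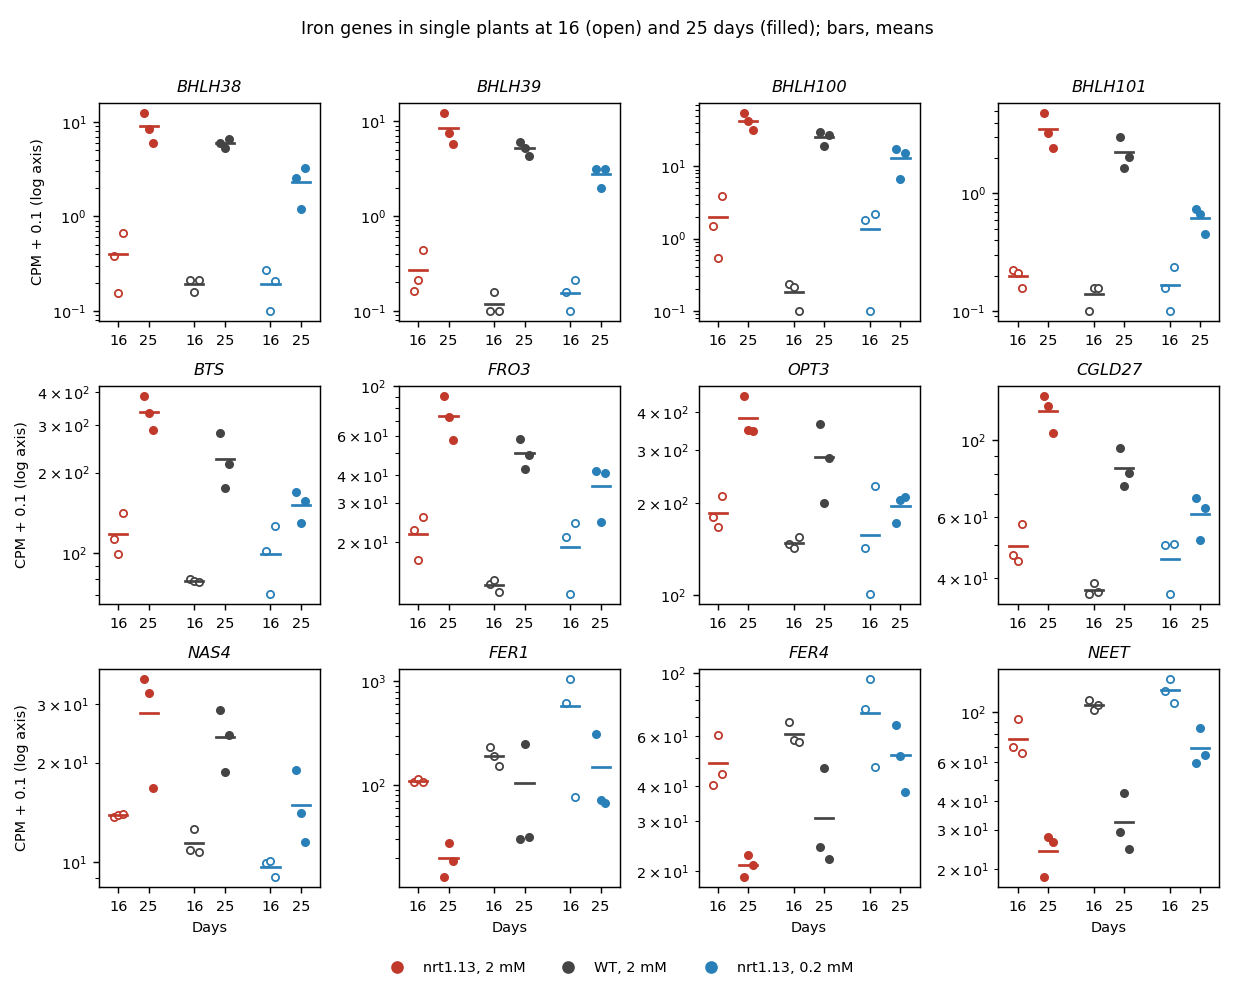
CPM + 0.1 (log axis) of 12 iron genes in single plants at 16 days (open) and 25 days (filled) in *nrt1.13* at 2 mM (red), wild type at 2 mM (grey) and *nrt1.13* at 0.2 mM KNO3 (blue), with bars at the means. The 12 are the iron genes that rose or fell and the *BHLH* genes, which were higher without overlap. That the days are separate in all 12 in *nrt1.13* at 2 mM therefore follows from the choice. Of all genes tested, 35.0% had no overlap there. Iron genes that did not follow, such as *FER3*, are not shown. *FER1* spans 76.4 to 1060 CPM in *nrt1.13* at 0.2 mM and 16 days.

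Outside the list, *ZIF1* and *NRAMP4*, chosen after their values were seen, also handle metals. *ZIF1*, a vacuolar nicotianamine transporter, rose from 39.1 to 46.3 CPM to 82.0 to 90.2 CPM (log2 FC 1.0). *NRAMP4*, which exports iron from the vacuole, rose from 23.0 to 31.1 CPM to 49.8 to 62.5 CPM (log2 FC 1.02). AT2G30766, named here by its ID, was 32.1, 22.2 and 40.2 CPM and then 107, 91.4 and 104 CPM (log2 FC 1.71, SE 0.50, adjusted *P* = 0.0273), a call that 7 of 19 alternatives lost.

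The superoxide dismutase *FSD1* changed in the opposite direction to *CSD1* and *CSD2*. *FSD1*, the plastid enzyme with iron, fell from 300, 430 and 355 CPM to 136, 161 and 149 CPM (log2 FC -1.27, SE 0.17, adjusted *P* = 1.58e-05). *CSD1* and *CSD2*, enzymes with copper and zinc, and *CCS*, the chaperone that supplies their copper, were higher by the adjusted *P* alone. Their log2 FC were 0.56, 0.75 and 0.47. *CSD2* was 448 to 483 CPM at 16 days and 732 to 852 CPM at 25 days. In the copper list 3 of 10 tested members were higher and 3 lower by the adjusted *P*, against 3.82% and 5.88% of all genes. The lower ones were *FSD1*, *YSL2* and the copper chaperone *CCH*.

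The 12 largest rises and 12 largest falls show what else moved, and the iron genes *FRO3*, *BTS*, *FER1* and *NEET* were among them. *CRK4*, a cysteine-rich receptor-like kinase, was 5.51, 5.74 and 6.28 CPM and then 17.6, 22 and 19.5 CPM (log2 FC 1.73, adjusted *P* = 1.02e-06). *HR4*, a homolog of the mildew resistance gene *RPW8*, was 14.7, 12.9 and 16.9 CPM and then 53.5, 48.1 and 41.6 CPM (log2 FC 1.68, adjusted *P* = 1.79e-05). Both more than doubled in every older plant over the highest younger plant. *PR4*, a hevein-like defence protein, had a log2 FC of 1.61, *ORG1* of 1.65, the calmodulin-like *TCH3* of 1.41 and the blue copper protein *BCB* of 1.38. The rest were AT5G05250 (1.61), AT3G16530 (1.48) and AT5G55450 (1.46). *TCH3*, AT3G16530 and AT5G55450 overlap annotated genes on the other strand, so their reads are uncertain. AT5G05250 lost its call when plant 2 of 16 days or plant 1 of 25 days was left out, with adjusted *P* up to 0.0599.

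Among the falls, *CIB1* (AT4G34530, TAIR10.1 chr4:16498391-16500174), a bHLH factor that binds the photoreceptor cryptochrome 2 and promotes flowering, varied little within a day. It had 21.4, 23.4 and 20.7 CPM at 16 days and later, at 25 days, 4.64, 4.79 and 4.59 CPM (log2 FC -2.20, SE 0.15, adjusted *P* = 3.27e-10). The plants of a day were close to each other while the mean fell 4.67-fold. *ADS1*, an acyl-lipid desaturase, was 29.1, 34.0 and 32.9 CPM and then 9.74, 9.81 and 11.2 CPM (log2 FC -1.63). *THI2.2*, a thionin, had a log2 FC of -1.55, and *PYK10*, a beta-glucosidase of ER bodies, fell from 173 to 194 CPM to 65.2 to 79.0 CPM (log2 FC -1.33).

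*PYK10* was listed as a root marker. The other root markers *CASP1*, *COBL9* and *IRT1* averaged at most 0.21 CPM on either day and *ESB1* had a log2 FC of 0.03 (adjusted *P* = 0.907). The remaining large falls were AT5G26220 (log2 FC -1.69), AT2G15830 (-1.48), AT5G57785 (-1.43), AT1G21520 (-1.36) and AT4G33960 (-1.29), and the ethylene receptor *ETR2*, which was 10.1, 8.13 and 9.51 CPM and then 2.83, 3.43 and 3.53 CPM (log2 FC -1.48, adjusted *P* = 5.94e-08).

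**Figure D3:**
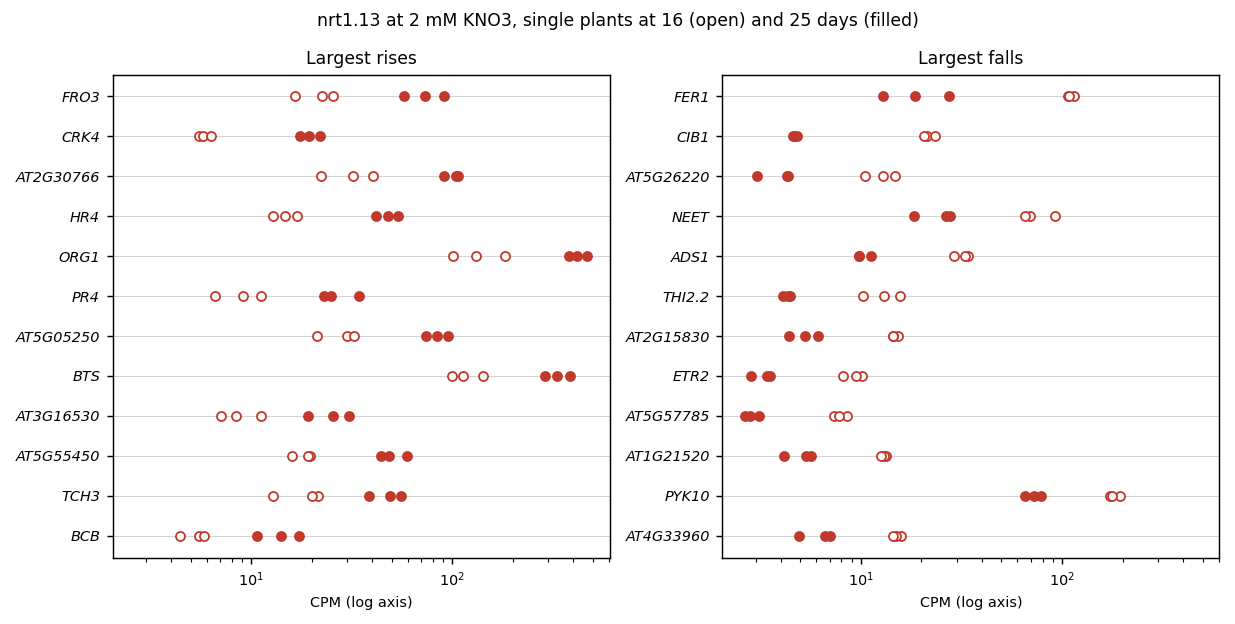
CPM (log axis) of the 12 genes with the largest rise and the 12 with the largest fall in *nrt1.13* at 2 mM KNO3, with 1 point per plant at 16 days (open) and 25 days (filled). That the days are separate was a condition for choosing these 24 genes. The 3 older plants of *CIB1* lie between 4.59 and 4.79 CPM.

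Several of the other genes that fell act in light and hormone signalling, and these were chosen after their values were seen. *ERS2*, another ethylene receptor, was 12.7 to 13.4 CPM and then 5.98 to 6.07 CPM (log2 FC -1.11), while *EBP*, an ethylene-responsive transcription factor, rose (log2 FC 0.93). *PIF3*, a phytochrome-interacting factor, was 25.4 to 25.9 CPM and then 10.8 to 13.2 CPM (log2 FC -1.12, adjusted *P* = 7.26e-08), and the cryptochrome *CRY3* had a log2 FC of -1.10. *BES1*, a transcription factor of brassinosteroid signalling, had the smallest adjusted *P* of the genes that rose or fell (7.62e-11), with 234 to 241 CPM and then 127 to 130 CPM, although it overlaps a gene on the other strand that reached 26.3 CPM. *CYP707A2*, which breaks down abscisic acid (log2 FC -1.10), and *IAGLU*, which conjugates auxin (-0.95), fell as well. *IAGLU* shares 210 bases with a gene on the other strand that reached 397 CPM. Both *EBP* and *IAGLU* dropped below the FC limit without plant 2 of 16 days (log2 FC 0.84 and -0.84).

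Some genes of the salicylic acid pathway, which defends against biotrophic pathogens, were higher at 25 days. Of the 16 tested members, 7 were higher by the adjusted *P* (against 3.82% of all genes), 4 of them with the FC limit (against 0.318%), and 0 were lower, and their median log2 FC was 0.45. *LURP1*, a gene strongly induced in defence, was 346, 308 and 321 CPM and then 734, 609 and 611 CPM (log2 FC 1.00, SE 0.22, adjusted *P* = 0.00441). *SARD1*, a transcription factor that switches on salicylic acid synthesis, was 4.99, 4.81 and 5.40 CPM and then 11.6, 10 and 10.3 CPM (log2 FC 1.06, adjusted *P* = 1.70e-04). In both genes the days did not overlap, although *SARD1* shares 640 bases with a gene on the other strand that reached 5.69 CPM.

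*PR2*, a beta-glucanase, was 3.83, 2.25 and 4.60 CPM and then 9.45, 8.88 and 6.59 CPM (log2 FC 1.24, adjusted *P* = 0.00524, and 0.0528 without plant 2 of 16 days). *DMR6*, a salicylic acid hydroxylase, had a log2 FC of 0.92, which fell below the FC limit without plant 2 of 16 days or plant 2 of 25 days (lowest log2 FC 0.79). *WRKY54*, *PCC1* and *EDS1* passed the adjusted *P* with log2 FC of 0.82, 0.63 and 0.35. Among the 9 that did not pass were *ICS1* (0.12), *EDS5* (0.10) and *NPR1* (0.07) near 0, and *PAD4* (0.51) further above it. Of the 13 members below the filter, 7 were higher at 25 days without overlap and 0 were lower. Of the 8274 genes below the filter with reads in the 6 libraries, 7.77% were higher without overlap and 7.08% lower. *PR1*, the usual marker of the pathway, was listed with 2, 0 and 0 reads at 16 days and reached 0.99, 2.61 and 1.62 CPM at 25 days, so its level stayed low.

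The touch, wound and heat list was higher in 3 of 10 tested members by the adjusted *P* and lower in 0 (median log2 FC 0.30). The shares of all genes were 3.82% and 5.88%. The 3 were *TCH3* and the chaperones *HSP70* (0.82) and *HSP101* (0.30). None of the 20 tested jasmonate genes passed the adjusted *P*, and their log2 FC ranged from -1.25 (*VSP1*) to 1.25 (*BAM5*). In the limma fit of the 6 libraries alone, *VSP1* and *VSP2* were lower (adjusted *P* = 6.82e-07 and 1.46e-08). *BAM5* (adjusted *P* = 1.53e-05), *LOX3*, *LOX4*, *OPR3* and *MYC2* were higher by the adjusted *P* of that fit. *TAT3*, a tyrosine aminotransferase induced by jasmonate and below the filter, was 4.17, 3.43 and 8 CPM and then 23.9, 12.7 and 18.9 CPM.

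In the age pathway, microRNA156 restrains the *SPL* genes in the young plant and microRNA172 later restrains repressors of flowering of the *AP2* family. *SMZ*, one of these repressors, was 9.13, 7.77 and 7.03 CPM and then 2.39, 1.67 and 1.91 CPM. Its mean was 4.01-fold lower without overlap, though it was below the filter (adjusted *P* = 2.68e-05 in the fit without one) and overlaps a gene on the other strand. *SNZ* was 41.3 to 44.3 CPM and then 27.7 to 31.3 CPM (log2 FC -0.57, adjusted *P* = 1.92e-05), and *TOE2* was 31.1 to 35 CPM and then 20.3 to 24 CPM (log2 FC -0.60, adjusted *P* = 5.44e-05). *TOE1* (-0.15), *AP2* (0.10) and *TOE3* (-0.02) did not pass, nor did any tested *SPL* gene, of which *SPL4* (0.51) and *SPL3* (0.36) had the highest values. The 13 tested members had a median log2 FC of -0.02, with 0 higher and 2 lower (against 3.82% and 5.88% of all genes).

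Of 8 tested floral integrators and repressors, 1 was higher and 1 lower by the adjusted *P*, and 0 passed the FC limit. The shares of all genes were 3.82% and 5.88%. Of the 10 members below the filter, 4 were higher without overlap and 1 lower, beside 7.77% and 7.08% of all genes below the filter. *FLC*, a repressor of flowering that vernalization silences, was 13.1, 10.7 and 11.7 CPM and then 17.1, 12.4 and 14.2 CPM, with overlapping days (log2 FC 0.29, SE 0.21, adjusted *P* = 0.408). *SOC1*, which integrates flowering signals, was 17.0 to 19.7 CPM and then 19.1 to 22.6 CPM (log2 FC 0.17, adjusted *P* = 0.337). *AGL24*, a promoter of flowering, was higher by the adjusted *P* (log2 FC 0.43) and the repressor *MAF2* lower (-0.31). *AP1*, which marks the floral meristem, was at 0 in the 16-day plants and at most 0.25 CPM at 25 days. *FD*, also below the filter, had a mean of 2.62 and then 1.46 CPM (adjusted *P* = 0.0196 in the fit without a filter).

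No tested gene of leaf senescence was higher. Of 13 tested members 0 passed on that side by the adjusted *P*, and *NYC1*, which starts chlorophyll breakdown, was lower (log2 FC -0.49). *SAG12*, a protease of senescing leaves, was at 0 in all 6 plants. *ORE1*, a NAC factor that promotes senescence, was 3.65, 3.05 and 4.23 CPM and then 0.35, 0.74 and 0.50 CPM, which is 6.88-fold less, and *SAG113* was 8.21 to 9.86 CPM and then 3.15 to 4.28 CPM. *ORE1*, *SAG113* and 3 more of the 16 members below the filter were lower without overlap and 2 were higher, beside the 7.08% and 7.77% of all genes below the filter.

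Of 25 tested genes of nitrate uptake and assimilation, 6 were lower by the adjusted *P*, 1 was higher and 18 did not pass (median log2 FC -0.13). The FC limit was passed by 0. The shares of all genes were 5.88% lower and 3.82% higher. Lower were the nitrate reductase *NIA2* (-0.33), the nitrite reductase *NIR1* (-0.40), the glutamate synthase *GLT1* (-0.44), *UPM1* (-0.60), which makes the siroheme of nitrite reductase, the regulator *LBD39* (-0.46) and the transporter *NRT2.7* (-0.31). *UPM1* was 106, 110 and 107 CPM and then 63.6, 75.4 and 73.5 CPM, with no overlap. *NRT1.1*, the nitrate transporter and sensor, was the 1 higher gene (0.37).

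In the remobilization list, 5 of 14 tested genes were higher (against 3.82% of all genes) and 0 lower by the adjusted *P* (median log2 FC 0.16), and 9 did not pass. They were the glutamine synthetase *GLN1;1* (0.58), the glutamate dehydrogenases *GDH1* (0.56) and *GDH2* (0.27), *PPDK* (0.60), a kinase of pyruvate metabolism, and the amino acid transporter *LHT1* (0.54). *GLN1;1* was 48.5, 43.5 and 49.2 CPM and then 76.3, 70.2 and 64.6 CPM. The urea transporter *DUR3*, below the filter, was 1.98 to 2.69 CPM and then 5.90 to 8.11 CPM.

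Of 32 tested cell cycle genes 9 were lower and 2 higher by the adjusted *P* (median log2 FC -0.17), against 5.88% and 3.82% of all genes. The FC limit was passed by 0, and *CDC20.1* (-0.57) was the lowest. *TSO2*, a ribonucleotide reductase subunit, was the highest (0.62). In the leaf growth list 5 of 24 were lower and 0 higher (against the same shares), with a median log2 FC of -0.04 close to that of all genes. Lower were among others the growth factor *GRF5* (-0.73), *CYP78A5* (-0.72) and *ANT* (-0.40). The type-A response regulators, which cytokinin induces, were higher in 4 of 6 tested members, against 3.82% of all genes (*ARR4*, *ARR6*, *ARR7* and *ARR9*, log2 FC 0.40 to 0.58).

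The nuclear photosynthesis genes were nearly level (median log2 FC 0.04, 2 of 43 higher and 1 lower by the adjusted *P*). For the lists in this paragraph, the shares of all genes were 3.82% higher and 5.88% lower. The exception among the photosynthesis genes was *LHCB4.3*, a minor light-harvesting protein. It was 26.6, 22.7 and 28.0 CPM and then 62.1, 58.0 and 60.2 CPM (log2 FC 1.22, adjusted *P* = 4.29e-07). Anthocyanin and flavonol genes were lower in 5 of 14 and higher in 0 (median log2 FC -0.30), and *F3H*, a flavanone hydroxylase, fell from 40.7 to 44.0 CPM to 18.4 to 23.4 CPM (log2 FC -1.08). The regulator *EGL3* fell with a log2 FC of -0.87, just past the FC limit, and lost the call under 6 of 19 alternatives. Of the aliphatic glucosinolate genes 4 of 15 were lower (median -0.36), led by *CYP79F2* (-0.77) and the regulator *MYB29* (-0.68). In the phosphate list 3 of 11 were higher, with the acid phosphatase *PAP17* at 0.99.

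Of the clock genes, 4 of 14 were lower by the adjusted *P* (against 5.88% of all genes), *ELF4* most (log2 FC -0.63, 104 to 110 CPM and then 66.7 to 74.2 CPM). *CCA1* and *LHY*, which peak at dawn in Arabidopsis, were under 1 CPM in every plant of both days. *PRR5* (-0.42), *ELF3* (-0.31) and *TOC1* (-0.23) were the other 3. Of the 5 clock members below the filter, 2 were higher without overlap and 0 lower, beside 7.77% and 7.08% of all genes below the filter. Whether the hour of harvest had a part in these or other genes was not tested.

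Against wild type at the same supply, no gene's change between the days could be told apart. The interaction of genotype and day was passed by 0 of 15108 genes (0.0%) with limma and 0 with edgeR, with a smallest adjusted *P* of 0.580. At an unadjusted *P* of at most 0.05 there were 588 genes, of which 5 also passed the FC limit. In wild type 35 genes rose (0.232%) and 56 fell (0.371%), 0.602% in all, and the adjusted *P* alone was passed by 2.46% higher and 4.56% lower genes (7.02%). Of these, 28 rose in both genotypes, which is 58.3% of the *nrt1.13* list and 80.0% of the wild-type list, and 38 fell in both, 67.9% of each list. All 48 genes that rose in *nrt1.13* had a positive log2 FC in wild type (median 0.92, against 1.1 in *nrt1.13*), and all 56 that fell had a negative one (median -0.96, against -1.01). Across the genes tested, which are not independent replicates, the log2 FC of the genotypes had a correlation of 0.73.

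Iron genes also moved in wild type, among them *BTS* (log2 FC 1.48, adjusted *P* = 3.37e-05), *FRO3* (1.96) and *NEET* (-1.76). Wild-type plants held 78.0 to 80.0 CPM of *BTS* at 16 days and 176 to 281 CPM at 25 days, below the *nrt1.13* plants of the same day. *FER1* in wild type was 154 to 231 CPM and then 30.1 to 252 CPM, with overlap. *BHLH100* was at most 0.13 CPM in the 16-day wild-type plants and 19.1 to 29.8 CPM in the 25-day ones.

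Nitrate supply altered the change between the days in many genes. The interaction of supply and day in *nrt1.13* was passed by 4400 genes by the adjusted *P* (29.1%), 2397 with a higher log2 FC at 2 mM (15.9%) and 2003 with a lower one (13.3%), and 435 also passed the FC limit (2.88%, of which 2.02% higher and 0.86% lower). At 0.2 mM 301 genes rose (1.99%) and 370 fell (2.45%), 4.44% in all, and the adjusted *P* alone was passed by 21.2% higher and 29.4% lower genes (50.7%). Of the 48 genes that rose at 2 mM, 34 had a positive log2 FC at 0.2 mM (median 0.40) and 14 rose there too (29.2% of the 2 mM list and 4.65% of the 0.2 mM list). Of the 56 that fell, 55 had a negative log2 FC at 0.2 mM (median -0.94) and 31 fell there too (55.4% and 8.38%). The interaction was passed by 27 of the 48, 25 of them with the higher log2 FC at 2 mM, and by 16 of the 56. These genes were picked by their change at 2 mM, which is itself part of the interaction. The counts and their direction are therefore no separate evidence of a difference between the supplies.

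**Figure D4:**
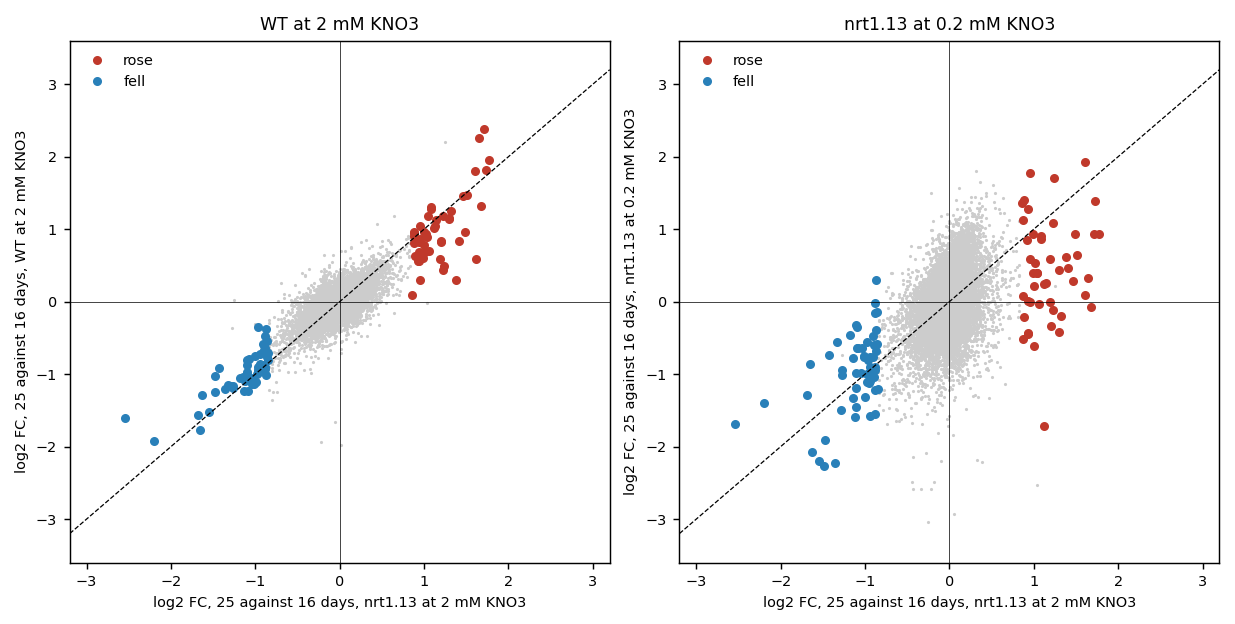
Log2 FC of 25 against 16 days in *nrt1.13* at 2 mM KNO3 (x axis) against that in wild type at 2 mM (left) and in *nrt1.13* at 0.2 mM (right), with grey points for all 15108 genes tested, red for the 48 that rose, blue for the 56 that fell and a dashed line of equal change. All 48 red points lie above 0 on the left and 34 of them on the right.

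In the salicylic acid list 8 of 16 tested members passed the interaction, all with the higher log2 FC at 2 mM (against 15.9% of all genes). *LURP1* was 151 to 242 CPM at 16 days and 97.9 to 160 CPM at 25 days with 0.2 mM, a log2 FC of -0.61 against 1.00 at 2 mM (interaction adjusted *P* = 4.09e-04). The log2 FC of *SARD1* was -0.04 with 0.2 mM and 1.06 with 2 mM (interaction adjusted *P* = 0.0013). *PR2* did not pass, with log2 FC values of 1.7 at the low and 1.24 at the high supply (interaction adjusted *P* = 0.412).

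Of the 13 tested members of the iron list, 3 passed the interaction (*CGLD27*, *BTS* and *NEET*), against 29.1% of all genes tested. The list as a whole thus did not stand out from all genes. The log2 FC of *BTS* was 0.64 at 0.2 mM (70.5 to 127 CPM and then 129 to 169 CPM), a difference of 0.88 from 2 mM (adjusted *P* = 0.0271). *FRO3* (0.94 at 0.2 mM, interaction adjusted *P* = 0.106) and *FER4* (-0.46, 0.0959) did not pass. *BHLH38* reached 1.1 to 3.13 CPM at 0.2 mM and 25 days, below the 5.90 to 12.4 CPM at 2 mM.

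Of all genes tested, 15.9% passed the interaction with the higher log2 FC at 2 mM and 13.3% with the lower. Photosynthesis genes passed it in 28 of 43 (26 higher at 2 mM), with a median log2 FC of -0.39 at 0.2 mM. Cell cycle genes passed it in 15 of 32, all lower at 2 mM, with a median of 0.26 at 0.2 mM. Glucosinolate genes passed it in 10 of 15 and jasmonate genes in 11 of 20, all with the higher value at 2 mM. *PPDK* went in opposite directions, with a log2 FC of 0.60 at 2 mM and -0.91 at 0.2 mM.

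Of the 10 genes with the largest interaction (5 in each direction), 1 rose or fell at 2 mM. *COR413IM1*, a cold-regulated protein of the plastid membrane, had 116, 97.9 and 117 CPM at 16 days and later, at 25 days, 110, 110 and 123 CPM at 2 mM, whereas at 0.2 mM it was 107 to 117 CPM and then 13.7 to 15.3 CPM (difference of log2 FC 2.98, adjusted *P* = 8.22e-12). *FIB2*, a fibrillarin of the nucleolus, was 43.2 to 56.1 CPM and then 58.7 to 63.9 CPM at 2 mM, and 40.1 to 47.8 CPM and then 128 to 145 CPM at 0.2 mM (difference -1.30). The 1 gene was *FAMT*, a methyltransferase of farnesoic acid, whose log2 FC was 1.1 at the high supply and -1.72 at the low. Its rise at 2 mM lost the call without plant 2 of 16 days or plant 1 of 25 days (adjusted *P* up to 0.084).

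**Figure D5:**
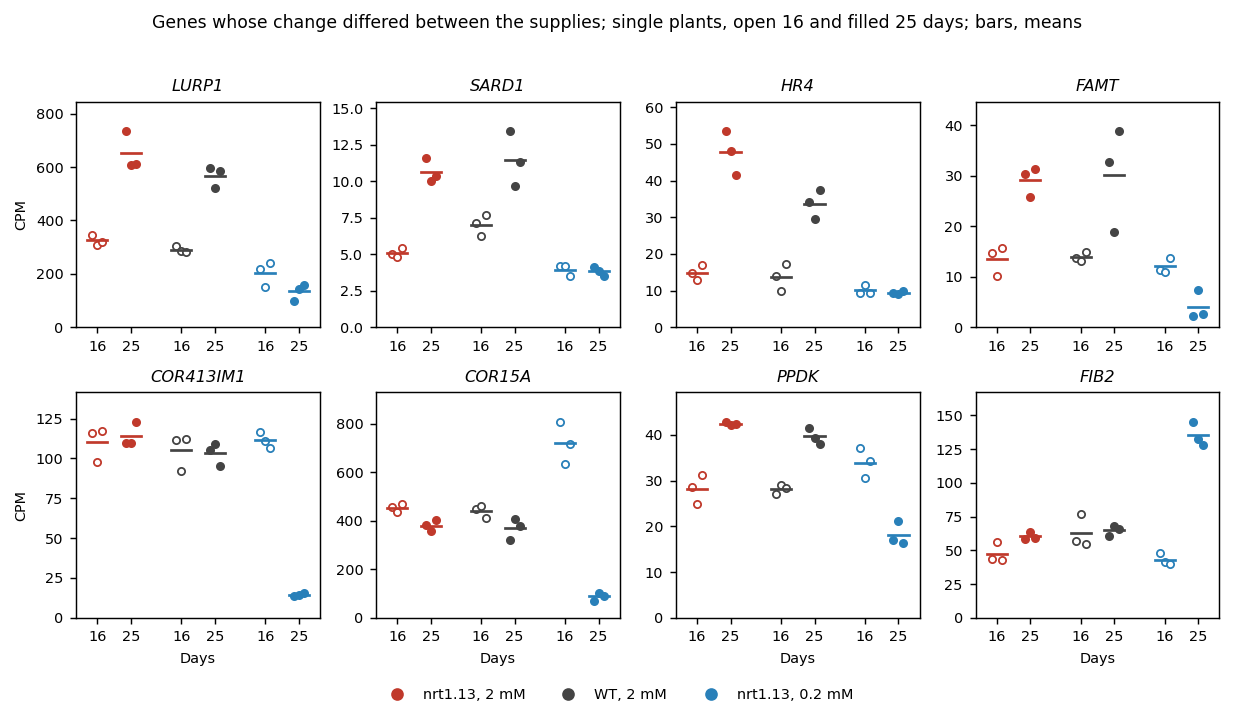
CPM of 8 genes whose change between the days differed between the supplies, in single plants at 16 days (open) and 25 days (filled) of *nrt1.13* at 2 mM (red), wild type at 2 mM (grey) and *nrt1.13* at 0.2 mM KNO3 (blue), with bars at the means. *LURP1* is higher at 25 days at 2 mM and has a lower mean with overlap at 0.2 mM, and *COR413IM1* is 97.9 to 123 CPM at 2 mM and 13.7 to 15.3 CPM at 0.2 mM and 25 days.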

How the data were processed

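RNAseq was carried out on shoots of wild type and *nrt1.13*, with 3 plants in each of 8 groups. The authors trimmed paired-end reads, mapped them to TAIR10 with CLC Genomics Workbench, counted uniquely mapped reads per gene and deposited them as a signal, reads divided by a size factor per library (CPM). In a library, 100% of the deposited values were multiples of the value of 1 read (within 0.01 of a read), so the reads were recovered. They ranged from 23608279 to 46155689 per library. Sums per library were 968394 to 1038371, and the extra scaling factor is not given in the sources used here.

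Here log2(CPM + 0.1) was tested with limma 3.58.1 in R 4.3.3 (8 group means, eBayes with a trend, 16 residual degrees of freedom). The contrasts were 25 against 16 days in *nrt1.13* at 2 mM and its difference from wild type and from 0.2 mM, both counted at an adjusted *P* of at most 0.05. Members below the filter were tested with an exact permutation test. The alternatives were pseudocounts of 1 and 0.5, other filters, other scalings, only the libraries of the contrast, limma without a trend, edgeR 4.0.16 on recovered reads, a replicate block, an FC of 1.5, the unadjusted *P* with the FC limit, and each library left out. The fits were tested on simulated data.

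The genes named were the 12 largest rises and falls, the 5 largest interactions in each direction, members of 27 lists whose IDs the reference pairs with the symbol (467 of 475), and genes the paper names. The 12 largest rises and falls were taken from genes that rose or fell and whose plants did not overlap between the days. The samples and lists were chosen with earlier results of these data known. Symbols, promoters and overlaps are from TAIR10.1. The deposited values carry no coordinates. Whether counting used the strand is not given in the sources used here. Overlaps with annotated genes on the other strand also exist for *FRO3*, *PYK10*, *F3H*, *UPM1*, *FLC*, *CSD1*, *YSL2*, *ELF3*, *ARR6*, *ARR9*, *GDH1*, *PPDK*, *HSP101*, *PAP17*, *SPL3*, *SPL4*, *TOE3*, *ESB1*, *EDS5* and *NPR1*. A promoter sequence that is withheld is not reported here.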

Additional observations from a re-analysis of the deposited data

Results flagged for a closer look

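The change between 16 and 25 days in *nrt1.13* differed between 2 and 0.2 mM KNO3 by a test of the difference itself (interaction in limma, adjusted *P* at most 0.05) in 2397 genes with the higher log2 FC at 2 mM and 2003 with the lower. The differences of log2 FC (2 mM minus 0.2 mM) that were largest upwards were those of *COR413IM1* (2.98), *FAMT* (2.84), *COR15A* (2.78), *CORI3* (2.6), a cystine lyase induced by coronatine, and AT1G76960 (2.51). Those largest downwards were of AT2G40010 (-1.48), AT3G51870 (-1.46), AT4G14090 (-1.33), the anthocyanin glycosyltransferase *UF3GT* (-1.30) and *FIB2* (-1.30).

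The 12 largest rises and 12 largest falls were picked by the change at 2 mM, which is part of the difference. Their direction is therefore partly set by that choice. Of the 12 genes with the largest rise at 2 mM, 5 also differed between the supplies, all with the higher log2 FC at 2 mM. They were *HR4* (1.76), AT5G05250 (1.52), *ORG1* (1.32), AT5G55450 (1.17) and *BTS* (0.88). Of the 12 with the largest fall, 8 differed. *CIB1* (-0.80), *NEET* (-0.80), *PYK10* (-0.77) and AT5G57785 (-0.69) fell further at 2 mM, while AT1G21520 (0.87), AT2G15830 (0.78), *THI2.2* (0.65) and *ADS1* (0.44) fell further at 0.2 mM. Groups of 3 plants were not tested for single plants far from the others.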

How the results depend on the processing

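The count of 48 genes that rose was 104 with an FC limit of 1.5, 93 with a filter on the mean CPM and 157 without a filter. The count of 56 that fell was 191, 86 and 148 in the same order. The other alternatives gave 45 to 63 and 38 to 68. With each of the 6 libraries left out in turn, 39 to 55 genes rose and 51 to 65 fell. No gene that rose or fell changed direction, and 67 of the 104 passed both limits under every alternative, 72 in every fit without 1 library. The interaction of genotype and day gave 1 gene without a filter, 2 with only the libraries of the contrast, 5 with the unadjusted *P* and the FC limit, and 0 to 0 with each of 12 libraries left out. The interaction of supply and day gave 445 with the unadjusted *P* and the FC limit instead of 4400, a stricter rule by its FC limit, and 3550 to 5097 with each of 12 libraries left out.

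The replicate numbers do not pair the plants, since each is a separate plant and the correlations of equal numbers were 0.074, 0.067 and -0.07. With a replicate block 48 genes rose and 56 fell, and the interactions gave 0 and 4511.

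With 3 plants a group, an exact *P* cannot go below 0.1, and genes under a CPM of 2 rest on fewer than 45.5 to 90.8 reads.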

Other observations

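Sucrose synthesis genes moved in opposite directions at 2 mM, chosen after their values were seen. *ATSPS4F*, a sucrose phosphate synthase, rose from 31.3, 36.8 and 31.9 CPM to 60.7, 60.2 and 63.1 CPM (log2 FC 0.88), whereas *SPP2*, a sucrose phosphatase, fell from 26.8, 27.9 and 26.2 CPM to 14.1, 14.8 and 15.2 CPM (log2 FC -0.87). Both overlap genes on the other strand. *PPC3*, a phosphoenolpyruvate carboxylase, rose (log2 FC 0.94). All 3 genes are near the FC limit. *SPP2* lost its call in 4 of 19 alternatives, among them the fits without plant 2 of 16 days or plant 1 of 25 days, *PPC3* in 2, without either of the same plants, and *ATSPS4F* in 1, without plant 1 of 16 days. The values closest to 0 were -0.83 for *SPP2*, 0.82 for *PPC3* and 0.84 for *ATSPS4F*.

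The younger plants held 25, 12.2 and 10.1 CPM of the plastid-encoded *PSBA* and the older ones 11.7, 65.5 and 2.47 CPM, with plant 2 of 25 days far above the rest. All plastid genes together took 0.0113% to 0.0385% of the values of the 6 libraries.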
